A study of Mus musculus with 6 samples.

Results

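The genes described here encode the proteins of the cytosolic ribosome in mouse liver, measured by RNA-Seq in 3 laboratory mice and 3 wild mice. They were chosen by name alone: Rpl or Rps followed by a number or by the letters of the stalk proteins and Rpsa, listed once in every file. This gave 82 genes, 53 of the large subunit and 29 of the small subunit, of 47232 gene names with an estimate for every mouse. A further 5 names that fit the rule (Rpl10a, Rps10, Rps18, Rps28 and Rps4l) were entered more than once for 5 of the mice and were left out. The annotation calls 80 of the 82 protein coding and 2 pseudogenes, Rpl6l and Rps12l1.

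The laboratory mice were C57BL/6 males aged 17 to 18 weeks. The wild mice were adult house mice trapped at a pair of sites in New South Wales and housed for 3 months, of which wild mouse 1 was male and wild mice 2 and 3 were female. None carried an engineered allele or received a treatment according to the labels, and sex differed partly along with origin. Unfixed liver was sampled fresh and stored frozen, and its polyadenylated RNA was sequenced in stranded libraries. The laboratory specimens had been archived longer than the wild ones when their fixed tissue was dissected. How long the frozen livers were kept before RNA extraction is not given in the sources used here, so storage may differ along with origin. The values are FPKM, fragments scaled by transcript length and by the number of fragments in the library, and zFPKM, the log2 FPKM minus a mode and divided by an SD fitted to each mouse. Each animal gave 1 library and no counts were used here, so absolute depth is unknown. In the 5 mice with Cufflinks bounds, the median distance of the bounds from the FPKM of members above an FPKM of 10 was 4.74 to 4.94% of the value.

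A ribosome holds 1 copy of nearly every ribosomal protein, and most are encoded by a single active gene amid many processed pseudogenes, copies of the mRNA put back into the genome. Their mRNAs begin with a 5′ terminal oligopyrimidine (TOP) tract, a C followed by a run of C and T in the DNA, through which TOR signalling adjusts their translation together. Liver makes large amounts of plasma protein and is known for high ribosome content.

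The start sites of the largest rises and the falls are shown where RefSeq has an entry, because the TOP tract is the sequence feature for which this gene family is known. The windows run from 10 bases before to 20 bases from the RefSeq start on GRCm38.p6, and the capitals mark the longest run of C and T on the transcribed strand.
Rpl35 (chr2:39005112-39005141, minus strand): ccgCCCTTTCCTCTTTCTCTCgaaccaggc
Rpl28 (chr7:4792955-4792984, plus strand): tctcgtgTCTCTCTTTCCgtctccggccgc
Rpl38 (chr11:114668570-114668599, plus strand): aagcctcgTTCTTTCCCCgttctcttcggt
Rpl26 (chr11:68901556-68901585, plus strand): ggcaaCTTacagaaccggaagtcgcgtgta
Rpl35a, first start (chr16:33056443-33056472, plus strand): gcgtgcgTCCCacaaggccgcgcggcgggg
Rpl35a, middle start (chr16:33056472-33056501, plus strand): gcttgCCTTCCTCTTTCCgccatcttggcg
Rpl35a, last start (chr16:33056504-33056533, plus strand): tgtggaggtgaggggggTTCCTgctgctga
Rplp2 (chr7:141447641-141447670, plus strand): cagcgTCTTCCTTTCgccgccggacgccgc
Rpl5 (chr5:107900518-107900547, plus strand): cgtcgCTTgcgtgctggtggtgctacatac
Rpl4 (chr9:64173377-64173406, plus strand): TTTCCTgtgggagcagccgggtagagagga
Rpl9 (chr5:65391412-65391441, minus strand): gggCCCTgacggattacaagaacgtgatga

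Rpl26, Rpl35a, Rpl35, Rpl28 and Rpl38 were higher in laboratory mice and Rplp2, Rpl5, Rpl4 and Rpl9 lower. Long tracts are printed for Rpl35, Rpl28, Rpl38 and the middle start of Rpl35a but also for Rplp2, and only short ones for Rpl26, Rpl5 and Rpl9. RefSeq start sites were at hand for 60 of the 82 members. A run of at least 8 C or T lay in the window of 23 members (38.3%), against 13% of the 27023 genes with an entry. A C followed by 4 C or T exactly at the start was found in 12 of the 60 members, against 3.01% of all genes. The run of 8 was present in 14 of 29 members called higher in laboratory mice, 1 of 4 called lower and 8 of 25 that were not called. No match says only that these letters are not in this window, since an annotated start can lie some bases from the real one.

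Ribosomal protein mRNAs were among the most abundant in every liver. The mean FPKM over the 6 mice exceeded 100 for 67 members and 10 for 77. The 5 highest by mean zFPKM were Rps29, Rpl38, Rpl28, Rpl36 and Rps15. Rps29, a zinc-binding protein of the small subunit, had an FPKM of 1178, 1281 and 1034 in laboratory livers against 942, 903 and 928 in wild livers. At the other end, Rpl10l, a retrocopy known from testis, was listed at 0 in every mouse. Rpl39l, another testis paralogue, was listed at 0.127 and 0.254 in laboratory mice 1 and 2 and at 0 elsewhere. Rpl3l, which is known from muscle, was listed at 0 in 3 mice and at 0.185 or less in the others. Rpl32l lay between 0.0543 and 0.789 and Rps12l1 between 2.89 and 4.56. Rpl10l and Rpl39l failed the filter on low values, a zFPKM above -3 in at least 3 of 6 mice, so 80 members were among the 18619 genes tested.

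**Figure D1:**
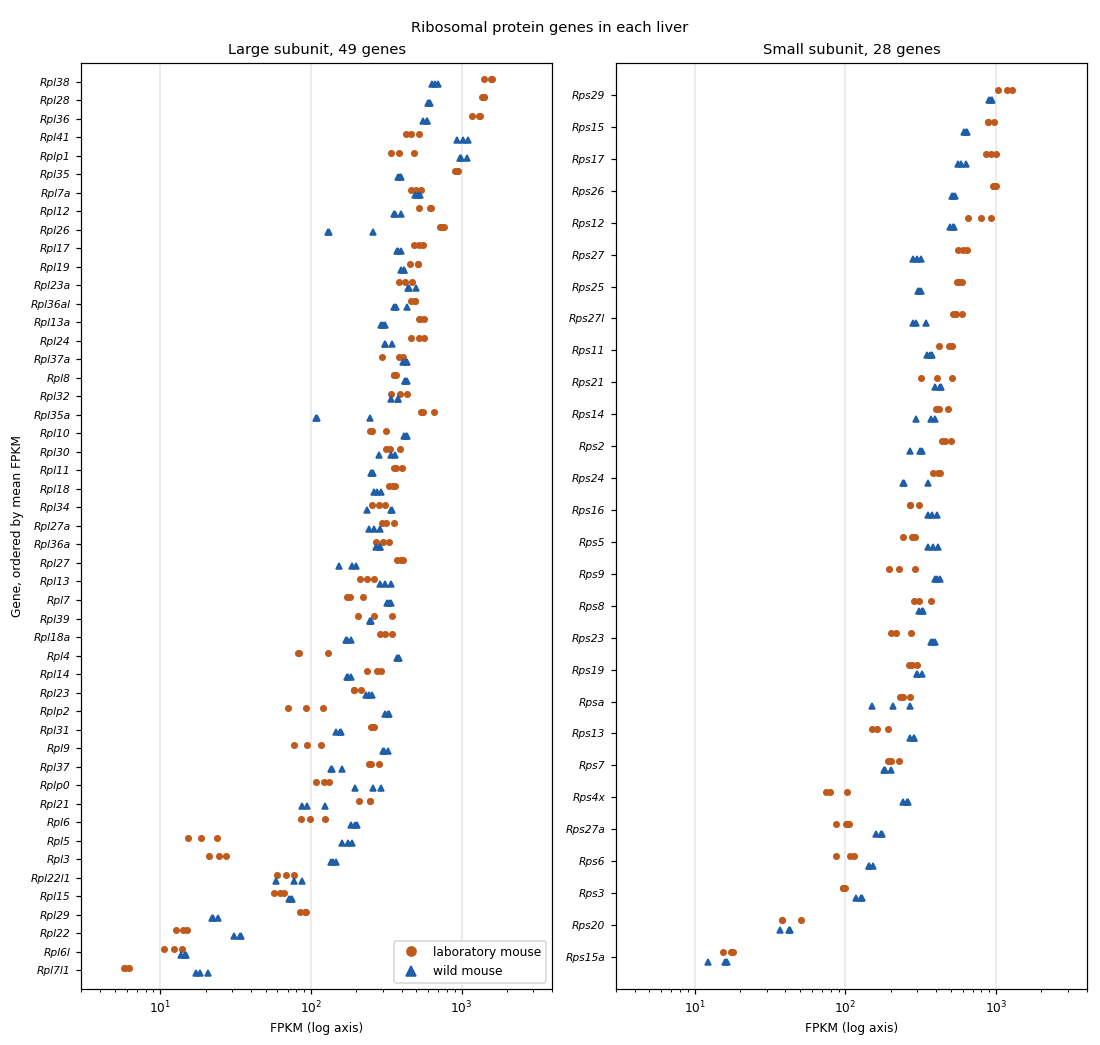
FPKM of the 77 ribosomal protein genes with a mean above 10, on a log axis, one row per gene and one point per mouse (circles, 3 laboratory mice; triangles, 3 wild mice). Rpl5, Rpl3, Rpl4, Rpl26, Rpl35a and Rpl29 show the 2 groups far apart, and the highest to lowest ratio among wild mice exceeds 1.5 in 3 members, Rpl26, Rpl35a and Rpsa.

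The relative levels of these mRNAs were nearly fixed within a group and different between groups. Over the 77 members with a mean FPKM above 10, Spearman's rho between the FPKM of 2 mice was 0.979 to 0.986 among laboratory mice and 0.954 to 0.969 among wild mice, but 0.629 to 0.760 between a laboratory and a wild mouse. These are descriptions across genes that share the same libraries. The median coefficient of variation of FPKM over the 77 members was 9.73% in laboratory mice against 4.79% in wild mice, beside 16.0% and 12.6% over all 3787 tested genes above the same FPKM. The members were also more unequal in laboratory mice, where the SD of their log2 FPKM was 1.61 to 1.68, than in wild mice, where it was 1.24 to 1.31.

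Of the 80 tested members, 40 were higher in laboratory mice and 5 lower in zFPKM (limma, Benjamini-Hochberg adjusted p under 0.05 over all tested genes), beside 7.17% and 7.28% of all tested genes. The largest rises were in Rpl26, Rpl35a, Rpl29, Rpl35, Rpl28, Rpl38, Rpl21 and Rpl36, all of the large subunit. The falls were in Rpl5, Rpl3, Rpl4, Rplp2 and Rpl9, also of the large subunit. The median difference, laboratory minus wild, was 0.293 over the members and 0.00500 over all tested genes, and 63 of 80 differences were above 0, against 50.4% of all tested genes. In this fit limma set a gene's variance by its mean level alone, so the spread of the gene itself among the mice did not enter its p-value. The counts depended on the fit. Without limma's trend of variance with level, 3 members were higher and 0 lower, beside 2.38% and 1.89% of all tested genes (27 and 2 members at an unadjusted p under 0.05). With each mouse centred on a median of 0, 6 were higher and 2 lower, beside 14.4% and 13.9%, which puts the members under the share of all genes. With no filter on low values limma called 0 members in either direction, beside 0.0318% and 0.0169% of 47232 genes (45 and 6 members at an unadjusted p under 0.05). When 1 mouse was left out, rises were 30 to 47 beside 3.55 to 8.82% of all tested genes, and falls were 3 without wild mouse 2, 3 without wild mouse 3, 4 without laboratory mouse 1 and 4 without wild mouse 1, beside 3.03 to 7.09%.

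Rpl26, a protein beside the exit tunnel for the growing chain, is at chr11:68901566-68904534. Its FPKM was 747, 762 and 725 in laboratory livers against 259, 129 and 131 in wild livers 1, 2 and 3. The groups did not overlap and wild mouse 1, the male, lay well above both wild females. The difference in zFPKM was 1.01 (SE 0.104, limma adjusted p = 9.13e-20). With the FPKM of its 6 near-identical copies added, described further on, the difference was 0.574 and the ratio of the means was 1.86 in place of 4.30.

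Rpl35a, mutated in some forms of Diamond-Blackfan anaemia in humans, is at chr16:33056453-33060189. The laboratory mice had an FPKM of 542, 654 and 553 and the wild mice 246, 108 and 110, again with the wild male highest among the wild mice and no overlap between groups. The zFPKM difference was 0.951 (SE 0.106, limma adjusted p = 9.56e-17), and with 13 copies added the ratio of the means was 1.84 in place of 3.77. Rpl29, a heparin-binding protein that mice can live without, is at chr9:106428889-106431568. It was read at 91.8, 92.6 and 84.5 in laboratory mice and at 24.1, 22.1 and 22.3 in wild mice, with little spread in either group. Its zFPKM difference was 0.934 (SE 0.138, limma adjusted p = 1.27e-09), a call that was lost once its near-identical copies were added, as given with the copies.

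The next largest rises were close to each other in size. Rpl38, a small protein known for its part in the translation of Hox mRNAs, had an FPKM of 1573, 1408 and 1600 in laboratory livers against 670, 703 and 635 in wild livers. Rpl28, a protein found only in eukaryotic ribosomes, had 1410, 1371 and 1414 against 610, 619 and 595. Both were more than 2 times higher in every laboratory mouse than in any wild mouse. The zFPKM difference was 0.681 (SE 0.0933, limma adjusted p = 3.83e-11) for Rpl38 and 0.684 (SE 0.0941, limma adjusted p = 4.85e-11) for Rpl28. Rpl35, Rpl21 and Rpl36 differed by 0.705, 0.678 and 0.662, and none of the 3 overlapped between groups, although Rpl21 did once its copies were added. Small subunit members rose as well: the widest were Rps27, with 638, 562 and 603 against 282, 297 and 317 (zFPKM difference 0.613), and Rps26, which differed by 0.581.

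Rpl5, which with Rpl11 carries 5S rRNA into the large subunit and can bind the p53 regulator Mdm2, is at chr5:107900508-107909005. Its FPKM was only 18.6, 24.0 and 15.4 in laboratory livers against 162, 176 and 187 in wild livers. The laboratory mean was 9.04 times lower than the wild mean, or 5.47 times lower with the FPKM of 4 copies added. The zFPKM difference was -0.865 (SE 0.133, limma adjusted p = 6.60e-09). Its partner Rpl11 was called in the other direction, at 356, 400 and 365 against 256, 260 and 252 (zFPKM difference 0.449, SE 0.106, limma adjusted p = 0.000458).

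Rpl3, which reaches towards the peptidyl transferase centre, is at chr15:80077781-80083406 and had an FPKM of 21.1, 27.4 and 24.6 in laboratory livers against 147, 135 and 139 in wild livers. The groups lay 5.76 times apart in the mean, or 8.89 times with copies added. Rpl4, which lines the exit tunnel, is at chr9:64173387-64178562 and had 82.4, 129 and 82.9 against 384, 371 and 378. The zFPKM differences were -0.628 for Rpl3 and -0.434 for Rpl4 (SE 0.133 and 0.112, limma adjusted p = 6.39e-05 and 0.00178). Rpl9, at 77.8, 117 and 93.7 against 303, 324 and 304, had a difference of -0.335 (SE 0.114, limma adjusted p = 0.0266).

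**Figure D2:**
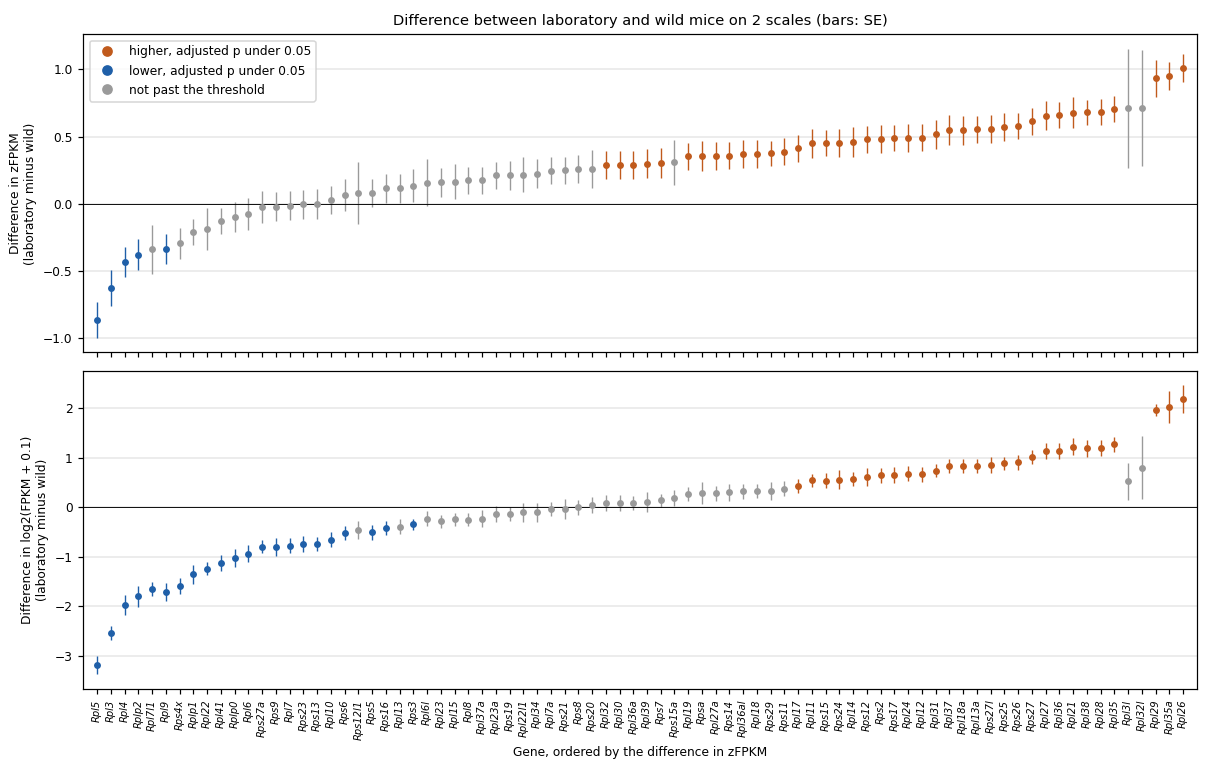
Difference between laboratory and wild mice for the 80 tested members, in zFPKM (top) and in log2(FPKM + 0.1) (bottom), each with its SE from limma, in the order of the zFPKM difference. The order is nearly the same on both scales, but the zero line moves, so that 40 rises and 5 falls on the top become 27 and 22 on the bottom.

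The balance of rises and falls depended on the scale. On log2(FPKM + 0.1), 27 members were higher in laboratory mice and 22 lower, beside 8.19% and 37.9% of all tested genes. On that scale the median difference over all tested genes was -0.47, and that of the members was 0.10. After the log2 values of each mouse were set to a median of 0, 46 members were higher and 7 lower, beside 28.7% and 18.6% of all tested genes. The 27 rises in log2(FPKM + 0.1) were all among the 40 in zFPKM, and the 5 falls in zFPKM were all among the 22. None was called in opposite directions on the 2 scales. Differences were above 0 for 45 members on log2(FPKM + 0.1), beside 32% of all tested genes, and for 64 after centring, beside 59.3%. In FPKM itself, 34 members were higher in all laboratory mice than in any wild mouse and 27 lower, beside 12.1% and 43.7% of all tested genes. Of these, 10 and 11 differed by more than 2 times in the mean, beside 9.15% and 33.9%. Ranked by FPKM within each mouse, 58 members stood higher in every laboratory mouse than in any wild mouse and 11 lower, against 25.6% and 27.2% of all tested genes. The median rank of the 82 members, counted from the most abundant gene, was 208 to 217 in laboratory livers against 321 to 334 in wild livers.

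Ratios between members of the same mouse do not depend on the scaling of that mouse, but they do depend on whether copies are counted. The ratio of FPKM of Rpl26 to Rpl5, the largest rise to the largest fall, was 40.2, 31.8 and 47.1 in laboratory livers against 1.6, 0.736 and 0.705 in wild livers. The ratio of Rpl35a to Rpl3 was 25.7, 23.9 and 22.4 against 1.68, 0.801 and 0.788. With copies added, Rpl26 to Rpl5 was 20.6, 20.2 and 25.8 against 2.25, 2.18 and 2.04, and Rpl35a to Rpl3 was 41.1, 35.9 and 35.0 against 2.34, 2.29 and 2.19. These pairs were taken for their extreme differences, so the ratios are given as a description.

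On log2(FPKM + 0.1), longer members tended to be lower in laboratory mice, and in zFPKM they tended to rise less. Over the 76 members with a mean FPKM above 10 and an annotated coding sequence, Spearman's rho between the log2(FPKM + 0.1) difference and coding length was -0.38, a description across genes. The 26 members with a coding length of 564 to 1257 bases had a median log2 difference of -0.45 and held 19.2 to 20% of the summed FPKM of all members in laboratory mice against 28.4 to 28.7% in wild mice. The 25 members of 396 to 552 bases had a median log2 difference of 0.54 and the 25 of 75 to 390 bases one of 0.19. In zFPKM the medians were all above 0, at 0.0992 for the long, 0.449 for the middle and 0.308 for the short members. Of the long members limma called 7 higher and 4 lower in zFPKM, beside 7.17% and 7.28% of all tested genes. Short members were found at both ends: Rpl41, whose coding length of 75 bases is the least of all members, had an FPKM of 460, 521 and 428 against 938, 1106 and 1025. Rplp1 and Rplp2, with 342 and 345 bases, were also lower in FPKM in every laboratory mouse.

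The same trend ran through other genes. Among 3291 other tested genes with a mean FPKM above 10, rho between the log2 difference and coding length was -0.29. In the length range of the long members, 1413 such genes had a median log2 difference of -0.99, and in those of the middle and short members 324 and 336 genes had medians of -0.64 and -0.10. In each range the members' median was above that of the other genes. Per mouse, log2(FPKM + 0.1) fell with each doubling of transcript length by 0.30 to 0.41 in the laboratory mice and by 0.18 to 0.25 in the wild mice, over 16495 tested genes. With the trend on transcript length removed, 30 members were higher and 8 lower in zFPKM, beside 5.8% and 7.32% of the genes in that fit. The part of length in the members' differences was not otherwise tested.

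**Figure D3:**
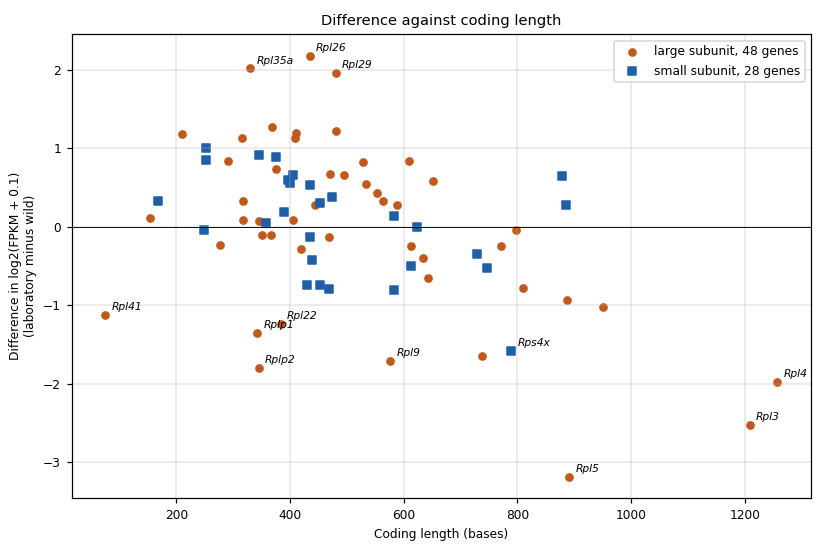
Difference in log2(FPKM + 0.1), laboratory minus wild, against coding length in bases for 76 members (circles, large subunit; squares, small subunit). The 2 longest, Rpl3 and Rpl4, lie far below 0, while Rpl41, Rplp1, Rplp2 and Rpl22 lie low among short members.

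Many members have near-identical copies, and a read from a stretch that is the same in gene and copy matches both. Of 13583 annotated pseudogenes, 547 matched the coding sequence of a member at 95% identity or more over at least 80% of its length, and 470 of them were listed in the files. Their summed FPKM was 15.1 to 16.7% of that of the members in laboratory mice against 19.3 to 21.1% in wild mice. Short stretches around the first base that differs show how alike gene and copy are (positions counted from 1 at the first base of the coding sequence, the differing base in capitals).
Rpl26, 163 to 192: gttcaggttgttcgCggacactacaaaggc
Gm15772 (chr5:3236431-3236868): gttcaggttgttcgTggacactacaaaggc
Rpl29, 58 to 87: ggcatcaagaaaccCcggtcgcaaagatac
Gm13841 (chr5:115801677-115802159): ggcatcaagaaaccAcggtcgcaaagatac
Rpl3, 43 to 72: ggcttcctgcctcgCaagcgcagcagccgg
Rpl3-ps1 (chrX:13202571-13203780): ggcttcctgcctcgAaagcgcagcagccgg

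The difference shown is C177T for Rpl26 and Gm15772, 1 of 2 differing bases in 435. For Rpl29 and Gm13841 it is C72A, 1 of 3 in 480, and for Rpl3 and Rpl3-ps1 it is C57A, 1 of 2 in 1209. Gm15772 had an FPKM of 180, 170 and 174 in laboratory livers against 219, 359 and 361 in wild livers. It was thus high in the 2 wild females, where Rpl26 was lowest. Rpl26 and its 6 listed copies together had 980, 990 and 950 against 514, 527 and 533, with a narrower spread among wild mice than for the gene alone.

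For Rpl29 the difference between groups was lost when its copies were counted with it. Gm13841 had an FPKM of 11.5, 14.4 and 12.5 in laboratory livers against 94.7, 79.5 and 82.6 in wild livers, the reverse of the gene. Rpl29 plus 21 copies had 239, 230 and 223 against 254, 218 and 223, which overlap, and the laboratory to wild ratio was 0.995 in place of 3.92 (zFPKM difference 0.255, limma adjusted p = 0.10). Rpl21, with 37 copies, went from a ratio of 2.31 to 1.08, and its groups then overlapped, at 273, 240 and 272 against 159 in the male and 276 and 296 in the females. Rps2, which helps form the mRNA entry channel of the small subunit, went from 1.56 to 0.705 with 23 copies.

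Rpl35a kept a higher level in laboratory mice at 957, 1063 and 939 against 570, 519 and 522 with its copies. Rpl28, Rpl35, Rpl36 and Rpl38 kept ratios between 2.28 and 2.52. Among the falls, Rpl3 widened, since its copies had a summed FPKM of 2.20 to 2.24 in laboratory mice against 91.8 to 98.8 in wild mice, and its ratio went from 0.174 to 0.112. Rpl5 with 4 copies had 47.7, 49.1 and 36.9 against 228, 242 and 261. Over all members with copies added, 37 were higher and 6 lower in zFPKM, beside 7.16% and 7.28% of all tested genes, with a median difference of 0.267. How reads that match both gene and copy were placed is not given in the sources used here, and the part of the copies in the differences was not tested further.

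**Figure D4:**
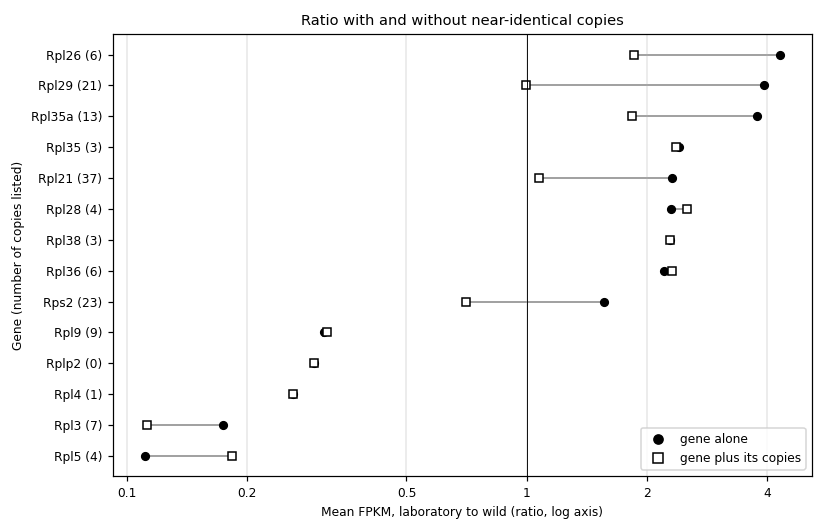
Ratio of mean FPKM, laboratory to wild, on a log axis, for the 8 largest rises, the 5 falls and Rps2, for the gene alone (filled) and with the FPKM of its near-identical copies added (open); the number of copies listed is in brackets. Rpl29 moves from 3.92 to 0.995 and Rpl26 from 4.30 to 1.86, whereas Rpl38, Rpl4 and Rpl9 barely move. Rplp2 has 0 copies listed and cannot move, and the 1 copy of Rpl4 has an FPKM of 0.795 or less.

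Both subunits held rises. Of 29 small subunit members, 14 were higher in laboratory mice and 0 lower by limma in zFPKM, with a median difference of 0.304, and 1 was lower at an unadjusted p under 0.05. On log2(FPKM + 0.1), limma called 9 higher and 9 lower, beside 8.19% and 37.9% of all tested genes. Of 51 tested large subunit members, 26 were higher and 5 lower in zFPKM, with a median of 0.289. For both subunits these zFPKM counts stand beside 7.17% higher and 7.28% lower over all tested genes. The median FPKM was 277 to 310 in laboratory livers against 298 to 320 in wild livers for the small subunit, and 273 to 313 against 264 to 288 for the large.

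The stalk proteins, which recruit elongation factors to the large subunit, all lay lower in FPKM in laboratory mice. Rplp0, the base of the stalk, had an FPKM of 123, 132 and 108 against 198, 293 and 257. Rplp1 had 385, 480.5 and 339 against 995, 1086 and 973, and Rplp2 had 93.4, 121 and 70.2 against 326, 332 and 309. No stalk gene overlapped between groups in FPKM, beside 43.7% of all tested genes that were lower without overlap. Rplp0 differed most among wild mice. In zFPKM only Rplp2 passed (difference -0.377, SE 0.114, limma adjusted p = 0.0101), with -0.212 for Rplp1 and -0.0983 for Rplp0. In log2(FPKM + 0.1) all 3 passed, by -1.80, -1.35 and -1.03. The shares of all tested genes called lower were 7.28% in zFPKM and 37.9% on log2(FPKM + 0.1).

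Among the paralogues, Rps27l, a p53-responsive relative of Rps27, was higher in laboratory mice, with an FPKM of 541, 598 and 516 against 295, 279 and 342. Its zFPKM difference of 0.556 (SE 0.102, limma adjusted p = 2.53e-06) was close to the 0.613 of Rps27. Rpl36al, an autosomal relative of X-linked Rpl36a, had 492, 488 and 463 against 436, 358 and 365 and a zFPKM difference of 0.370 (adjusted p = 0.00387 in the same limma fit), which did not pass on log2(FPKM + 0.1). Rpl22l1 had 59.5, 68.7 and 77.1 against 77.0, 58.3 and 87.3, with overlapping groups, whereas its relative Rpl22 had 14.2, 15.1 and 12.7 against 34.5, 34.1 and 30.9. Rpl7l1 had 6.18, 5.75 and 5.80 against 20.7, 17.2 and 18.5 and a zFPKM difference of -0.337, which did not pass (limma adjusted p = 0.231). Rpl32l and Rpl3l had zFPKM differences of 0.712 and 0.711 with SEs of 0.432 and 0.442, and neither passed.

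Small nucleolar RNA genes lie inside 29 members on the RefSeq annotation. Of these host genes 14 were higher and 4 lower in zFPKM, and of 49 tested members without one 25 were higher and 1 lower. Of all tested genes 7.17% were higher and 7.28% lower. Rpl28 and Rpl3l were not looked up. Of the 5 falls, Rpl5, Rpl3, Rpl4 and Rplp2 are hosts, a description of few genes that was not tested.

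As a pool, the members summed to an FPKM of 28989, 30953 and 28708 in laboratory livers against 25030, 24655 and 24075 in wild livers. They made up 4.49, 4.77 and 4.49% of all summed FPKM in laboratory mice against 4.43, 4.33 and 4.41% in wild mice, or 4.58% ± 0.159 (SD, n = 3) and 4.39% ± 0.0551 (SD, n = 3). The gap between the closest mice of the 2 groups was thus less than the spread among laboratory mice. This share depends on what else is counted. Mitochondrially encoded genes held 29.6, 21.9 and 31.9% of summed FPKM in laboratory mice against 3.95, 3.25 and 3.0% in wild mice. Without them, the members' share was 6.36% ± 0.249 (SD, n = 3) in laboratory livers, against 4.54% ± 0.0706 (SD, n = 3) in wild livers. Without the 100 most abundant genes, which leaves 74 members, the share was 10.3% and 5.83%. The part of the mitochondrial transcripts in the members' differences was not tested beyond this.

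The wild mice could be compared by sex only as single values. Of the 77 members with a mean FPKM above 10, the male lay above both females for 40 and below both for 15. It was over 1.5 times the higher female in 2 members, Rpl26 and Rpl35a, and in none was it below the lower female by as much. The highest to lowest ratio among wild mice exceeded 1.5 in 3 members and among laboratory mice, all male, in 7. These counts have no share of all tested genes beside them. They therefore cannot be read as particular to the members or as an effect of sex. The 3 members past 1.5 among wild mice were Rpl26, Rpl35a and Rpsa, the laminin receptor homologue, at 267, 206 and 150. With sex as a covariate, 29 members were higher and 1 lower by limma, beside 6.04% and 1.34% of all tested genes, which then sets 1 wild male against 3 laboratory males.

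Other genes of protein synthesis had fewer calls in zFPKM. Of 196 tested genes in 7 lists, 17 were higher in laboratory mice and 14 lower by limma, near the 7.17% and 7.28% of all tested genes, with a median difference of -0.0580. On log2(FPKM + 0.1) 14 were higher and 115 lower, beside 8.19% and 37.9%. The counts in zFPKM moved with single mice, as did the shares of all tested genes. Rises were 29 without laboratory mouse 3, beside 8.82% of all tested genes, and 6 to 10 without any other mouse, beside 3.55 to 5.68%. Falls were 5 without wild mouse 2 and 3 without wild mouse 3, beside 3.42% and 3.03%. Without the trend limma called 0 in either direction, beside 2.38% and 1.89% (9 and 17 at an unadjusted p under 0.05). Among cytosolic ribosome parts outside the name rule, Fau, which yields Rps30, and Rps3a1, of the small subunit, were not called by limma, with differences of -0.0191 and 0.00671, and neither passed at an unadjusted p under 0.05. On log2(FPKM + 0.1) limma called both lower. Fau had an FPKM of 244, 214 and 178 against 391, 355 and 339.

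The list of 9 tested elongation and release factors also holds the kinase Eef2k. In zFPKM limma called 4 of the 9 lower in laboratory mice and none higher (1 higher at an unadjusted p under 0.05), with a median of -0.344. Of all tested genes 7.28% were lower and 7.17% higher. The 4 falls were in the elongation factors Eef1a1, Eef1b2 and Eef2 and the release factor Gspt1. None passed without the trend (2 lower at an unadjusted p under 0.05). Eef2, which moves the ribosome along the mRNA and has a TOP tract of its own, had an FPKM of 66.5, 96.3 and 67.1 against 447, 526 and 481. Its zFPKM difference of -0.675 (SE 0.112, limma adjusted p = 1.06e-07) was the largest fall of this list. Eef1a1, the most abundant, had 556, 667 and 596 against 1675, 1840 and 1817. The list of 37 initiation factors also holds the eIF4E-binding proteins Eif4ebp1 and Eif4ebp2. In it 1 gene was higher and 6 lower: Eif2b1 rose by 0.518, and Eif2s3x, an X-linked subunit of eIF2, fell by 0.992 in zFPKM. The most abundant was Eif1, with a difference of -0.227 that did not pass.

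The counts of each list below are in zFPKM unless said otherwise, where 7.17% of all tested genes were higher and 7.28% lower. TOP mRNAs outside the ribosome, several of which are elongation factors, had 2 of 17 higher and 3 lower. Tpt1, the most abundant, had an FPKM of 1536, 1762 and 1631 against 1173, 1346 and 1284, and Gas5, a host of small nucleolar RNAs, had the largest rise at 0.610. Of 50 ribosome biogenesis genes 2 were higher, Ppan (0.829) and Nop56 (0.573), and 0 lower by limma (4 at an unadjusted p under 0.05). On log2(FPKM + 0.1) 27 were lower, beside 37.9% of all tested genes. Npm1, the most abundant of them, differed by 0.138. Of 20 TOR and MYC regulators 1 was higher, Akt1s1 (0.416), which is also the most abundant. Mitochondrial ribosomal proteins, which work in another compartment, had 11 of 72 higher and 4 lower, with a median of 0.0728. Mrps21 had the largest rise (0.612), Mrpl44 the largest fall (-0.621), and Mrpl52 was the most abundant.

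**Figure D5:**
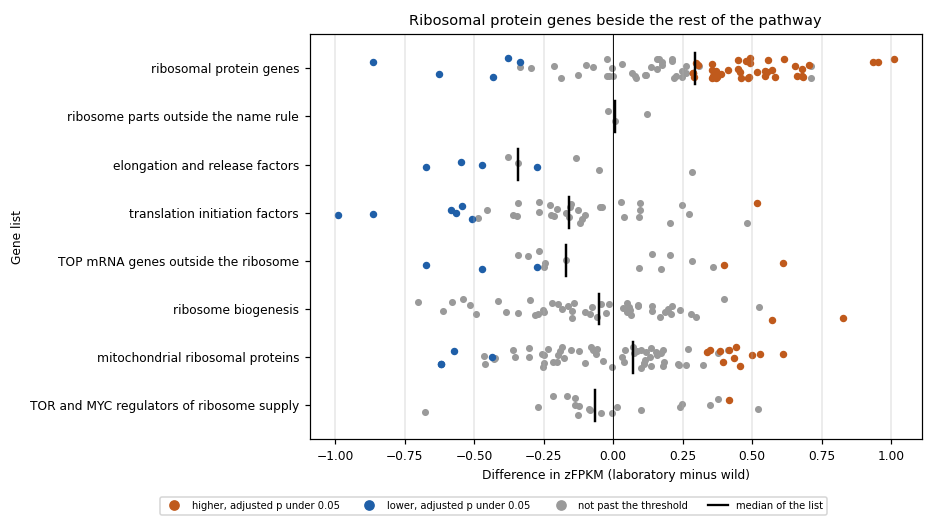
Difference in zFPKM, laboratory minus wild, for the members and 7 lists of other protein synthesis genes; each point is a gene, coloured where it passed limma's adjusted threshold of 0.05, and the vertical bar is the list's median. The members have a median of 0.293 and the elongation and release factors one of -0.344.

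Of 7 erythroid markers, limma called 6 higher in laboratory mice in zFPKM, 4 on log2(FPKM + 0.1) and 1 without the trend. The shares of all tested genes called higher in these fits were 7.17, 8.19 and 2.38%. In zFPKM all 7 differences lay above 0, as did those of all 5 biliary markers, beside 50.4% of all tested genes. Differences above 0 numbered 5 of 8 lymphocyte, 6 of 9 Kupffer cell and 5 of 7 sinusoidal endothelial markers. They numbered 3 of 6 in the hepatocyte and in the stellate and fibroblast lists. No erythroid marker is at 0 in every mouse, and their summed FPKM was 1340 to 5135 in laboratory livers against 724 to 1581 in wild livers. Hepatocyte markers were split, with 3 of 6 higher and 2 lower and a summed FPKM of 27965 to 38650 against 20525 to 23394, so the defining genes of liver were present in every mouse. Kupffer cell (0 of 9) and sinusoidal endothelial markers (0 of 7) had no call by limma, with 1 of each list higher at an unadjusted p under 0.05. Of 8 lymphocyte, 6 stellate and fibroblast, and 5 biliary markers, 1, 2 and 1 were higher and none lower in zFPKM (limma, with 0, 1 and 0 lower at an unadjusted p under 0.05). On log2(FPKM + 0.1), 2, 1 and 1 were higher and 1, 3 and 0 lower, beside 8.19% and 37.9% of all tested genes. The stellate and fibroblast markers summed to an FPKM of 33.4 to 52.4 in laboratory livers against 72.9 to 134 in wild livers. Most of this sum was Dcn, with 21.7, 32.4 and 25.6 against 62.7, 112 and 77.2. Lrat and Reln were also called lower on log2(FPKM + 0.1), whereas Col1a1 and Col3a1 were the markers of this list called higher in zFPKM. In bulk liver, fewer cells of a type and less RNA per cell cannot be told apart. The part of erythroid RNA in the members' difference was not tested.

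The 5 repeated names were not compared over all mice, since laboratory mouse 1 has 1 entry for each and the other mice 2 to 4, and how reads were divided among the entries was not given in the sources used here. For Rps10, the entry on the chromosome had an FPKM of 155, 190 and 161 against 177, 178 and 163 in the wild mice, with overlapping groups.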

How the data were processed

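RNA-Seq of 6 mouse livers was used, 3 laboratory and 3 wild. The authors aligned reads to the masked GRCm38.p6 assembly with kalign, made FPKM with the Tuxedo pipeline, turned FPKM into a zFPKM score for each mouse in R, and deposited FPKM and the score. No counts were used, so the edgeR test of the methods was not repeated and depth is unknown. In the zFPKM test limma estimated infinite prior df, so a gene's variance came from its mean level and not from its own spread over 3 animals per group. On log2(FPKM + 0.1) the prior had 3.38 df beside 4 residual, so that spread did enter.

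Names with a single entry in each mouse were kept, and 24 with a failed or uncomputed estimate in any mouse were dropped, none of them a member. Failures are marked for 5 mice. Values under -3 in zFPKM were raised to -3, and genes over -3 in 3 or more of 6 mice entered the test by limma 3.58.1 in R 4.3.3 (lmFit, eBayes with trend, Benjamini-Hochberg, adjusted p under 0.05). Fold changes on log2(FPKM + 0.1) understate low genes. Tables were made in Python 3.11.15 with pandas 2.3.3 and scipy 1.17.1. Copies were found with blastn 2.17.0 between coding sequences of 79 members and GENCODE pseudogene transcripts of GRCm38, each copy going to its best member. Lengths came from the same annotation, and 88.6% of tested genes had one. Starts in the files count from 0, so 1 was added, and 80 members then had the RefSeq coordinates.

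The members and lists were chosen with earlier results of these data known. The named genes are the 5 highest and 5 lowest members by mean zFPKM, the 8 largest rises and up to 8 falls past the threshold, stalk proteins, paralogues, members listed at 0, ribosome parts outside the name rule and, per other list, the most abundant gene and the largest rise and fall. Rpl11, Rps27, Rps26, Rps2, Rpsa, Rpl22 and Rpl41 and the copies were named after their values were seen. 1 named gene is not reported here. In a test on simulated data for laboratory against wild, 84.5% of 200 genes among 18619 shifted by 2 in zFPKM were recovered and 5.06% of 178 calls were false. That shift exceeds every member's difference in zFPKM, of which the highest was 1.01 and the median 0.293. The simulation therefore does not give recovery or false calls at those sizes.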

Additional observations from a re-analysis of the deposited data

How the results depend on the processing

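No paired analysis was possible because the labels give no replicate number that links a laboratory mouse to a wild mouse. The 5 falls kept a negative difference under all 22 alternatives and 35 of the 40 rises a positive one, the exceptions being Rpl29, Rpl30, Rps2, Rps7 and Rpsa, which were at or under -0.0040 on log2(FPKM + 0.1) with copies added, a setting added once the data were known. Changes to the floor, low-value filter or variance trend alone did not alter these members' differences, so those settings could not turn a sign. The calls were less stable than the directions.

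Rises among the members numbered 0 with no filter on low values (limma over 47232 genes, 45 at an unadjusted p under 0.05), 3 without the trend, 6 with a median of 0 in each mouse and 26 on log2(FPKM + 0.1) with copies added, beside 0.0318, 2.38, 14.4 and 8.19% of all genes, and 30 to 47 with a mouse left out. Falls numbered 0 with no filter (6 at an unadjusted p under 0.05), 0 without the trend (2 at an unadjusted p under 0.05), 2 at a floor of -20, 2 with a median of 0, 1 with sex as a covariate, 8 with the length trend removed, 9 after quantile normalization, 22 on log2(FPKM + 1), 22 on log2(FPKM + 0.1), and 3 to 5 with a mouse left out, beside 0.0169, 1.89, 3.1, 13.9, 1.34, 7.32, 20.4, 36.8, 37.9 and 3.03 to 7.09% of all genes in that order. Of the settings chosen after seeing the data, falls numbered 23 with the mean of the members at 0, 20 on log2(FPKM + 0.1) with copies and 8 without laboratory mouse 3 and wild mouse 1, beside 37.7, 37.9 and 15.9%. The median difference of the members was 0.22 with the length trend removed, 0.36 with sex as a covariate, and on log2 scales 0.0841 for FPKM + 1, 0.10 for FPKM + 0.1, 0.84 after centring on the median, 0.0859 with the mean of the members at 0 and 0.0208 with copies, with 0.260 to 0.328 when a mouse was left out. The laboratory to wild ratio of the members' share was 1.04, 1.78 without the 100 most abundant genes, 1.40 without mitochondrially encoded genes and 1.02 to 1.06 with a mouse left out.

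For the other protein synthesis genes, the share of all genes in the same fit is given in brackets. At a floor of -5, 17 rises became 11 (5.2%) and 14 falls 9 (5.31%). At -20 they were 6 (3.32%) and 7 (3.1%). Limma called 0 and 0 with no filter (0.0318% and 0.0169%) and with no trend (2.38% and 1.89%). After quantile normalization rises and falls were 51 (18.7%) and 50 (20.4%), and on centred log2(FPKM + 0.1) 37 (28.7%) and 49 (18.6%). With sex as a covariate they were 7 (6.04%) and 1 (1.34%). Rises became 11 (5.8%) with the length trend removed. Falls became 116 (36.8%) on log2(FPKM + 1), 115 (37.9%) on log2(FPKM + 0.1) and 30 (13.9%) with a median of 0. With a mouse left out, rises were 6 to 29 (3.55 to 8.82%) and falls 3 to 13 (3.03 to 7.09%).

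Among named genes, signs turned in 6: Rpl22l1 to -0.10 on log2(FPKM + 1), -0.11 on log2(FPKM + 0.1), -0.11 with the members' mean at 0 and -0.0865 with copies; Rpl29 to -0.0040 on log2(FPKM + 0.1) with copies; Rplp0 to 0.0888 with sex; Rps12l1 to -0.37, -0.45 and -0.46 on the first 3 of these log2 scales and -0.121 without the length trend; Fau to 0.0154 with a median of 0; Rps3a1 to -0.71 on log2(FPKM + 1) and on log2(FPKM + 0.1) and -0.0414 without the length trend. With a mouse left out, Rps12l1 ranged from -0.0204 to 0.234, Fau from -0.0806 to 0.0476 and Rps3a1 from -0.0324 to 0.0759. The cause was not tested. Depth is unknown, so nothing is said of genes listed at 0.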
